A study of Mus musculus with 2 samples.

Results

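Small structural and nucleolar RNAs were compared between AS-treated and vehicle-treated 4T1 cells, a line from a mouse mammary carcinoma. AS is astragalin, a plant flavonoid, and was given at 20 μM for 24 h, with 24 h of vehicle as the control. Total RNA of each condition gave 1 library, prepared with a stranded mRNA kit. With 1 library per condition no difference has a replicate check, no test was made, and intervals given below cover counting error only. In such bulk samples fewer cells of a type and less RNA per cell cannot be told apart. The RNAs were selected by symbol, as snoRNAs (Snora and Snord), small Cajal body RNAs (Scarna), spliceosomal RNAs (Rnu), 7SL and 7SK RNAs (Rn7s), ribosomal RNAs (Rn18s and Rn45s), numbered microRNA genes (Mir) and Rpph1, Rmrp, Terc and Gm54587. This choice was made with fold changes of the same 2 libraries known, so the values below describe the RNAs that were chosen by them and support nothing further. The rule found 89 of the 14197 genes of the table.

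Most of these RNAs carry no poly(A) tail. SnoRNAs guide chemical changes of ribosomal RNA in the nucleolus, those with boxes C and D for methylation of the ribose and those with boxes H and ACA for pseudouridine, and in mammals they are cut from introns of host genes. 7SL RNA is the scaffold of the signal recognition particle, and Rpph1 is the RNA of RNase P, which trims the 5′ end of precursor tRNAs; both are made by RNA polymerase III. Most microRNA hairpins are cut from longer transcripts by Drosha and Dgcr8, and a library of long fragments shows mainly those longer transcripts and not the mature microRNA.

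The 89 genes comprised 7 H/ACA snoRNAs, 8 C/D snoRNAs, 2 copies of 7SL RNA (Rn7s1 and Rn7s2), 1 ribosomal RNA copy (Rn18s-rs5), Rpph1, 65 microRNA hairpins, 4 microRNA host transcripts and Gm54587, which the rule took by name and for which the references used here held no entry. No gene of the Scarna, Rnu or Rn45s names was in the table, nor were Rmrp and Terc. The table held 8 of 98 Snord symbols, 7 of 40 Snora symbols and 65 of 1163 numbered microRNA hairpins of the GENCODE M21 annotation (mouse build GRCm38), so the RNAs described are those that passed the filter on low values, and an RNA could pass it through 1 library alone. The gene with the fewest reads in the table had a mean of 29.5 reads over both libraries, and the least covered of the 89 had 42.

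Some of the sequences show what was counted. Rn7s1 and Rn7s2, both on chromosome 12, have identical sequences at 300 of 300 positions in GENCODE M21, and neither overlaps a longer gene. Rpph1 (319 bases, chr14:50807449-50807767, minus strand) overlaps an exon of Ccnb1ip1 on the same strand, and its bases 36 to 268 are identical to a stretch of a Ccnb1ip1 transcript. Bases 269 to 319 (chr14:50807449-50807499) follow the shared stretch; they are shown because they are not part of it, although they lie within the annotated bounds of Ccnb1ip1.
Rpph1, 269 to 319: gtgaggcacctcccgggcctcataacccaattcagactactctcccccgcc

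Of the snoRNAs, Snord57 (chr2:130278016-130278087, plus strand) had the largest difference, and Snora31 (chr14:75847905-75848034, plus strand) is an H/ACA example that lies in an intron only. Capitals mark the first GATGA and the last CTGA in Snord57, which are letters of boxes C and D, and the last ACA in Snora31. On the strand of the RNA, GATGA is present in 81.6% and CTGA in 100% of the 98 C/D entries of the annotation, and ACA is found in the last 12 bases of 95.2% of its 42 H/ACA entries.
Snord57: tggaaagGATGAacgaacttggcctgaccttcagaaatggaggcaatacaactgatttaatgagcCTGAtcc
Snora31: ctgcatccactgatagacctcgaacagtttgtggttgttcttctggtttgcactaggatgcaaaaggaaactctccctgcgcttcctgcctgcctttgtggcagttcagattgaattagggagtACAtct

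For the hairpins, mature sequences from RefSeq (GRCm38.p6) were matched for 59 of 65, with 85 mature microRNAs and 84 distinct seeds, so nearly every one had a seed of its own. The 4 hairpins furthest from equal levels are shown with the seed (bases 2 to 8) in capitals. The mature arms lie at chr9:110281353-110281371 (plus strand), chr9:62122565-62122585 (minus), chr17:57217201-57217223 (minus) and chr6:85336341-85336360 (minus), in that order.
miR-6236: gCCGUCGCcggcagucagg
miR-5133: gCUGGAGCugcggcagcgcag
miR-6978-5p: aAGGGGUGagagagaagcuggug
miR-705: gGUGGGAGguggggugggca

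Of the 89 RNAs, 6 had a log2 fold change under -1 with AS and 0 had one over 1; among all 14197 genes of the table, 0.31% were lower and 0.662% higher by this measure. The rule drew on this contrast, and nothing is read from the difference of the shares. Fold changes are log2 ratios of AS over vehicle with 0.1 RPKM added to both, and RPKM is the reads of a gene divided by its exon length in kilobases and by the library size. The 6 were Rpph1, Gm54587, Rn7s1, Mir6236, Rn7s2 and Rn18s-rs5. The median log2 fold change of the 89 RNAs was -0.03, beside 0.07 for all genes, and 48 were below 0 and 41 above. Of all 14197 genes, 5555 were below 0 and 8642 above. At a lower threshold of 1.5-fold, 7 were lower and 2 higher, and 2.01% and 3.56% of all genes were.

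**Figure D1:**
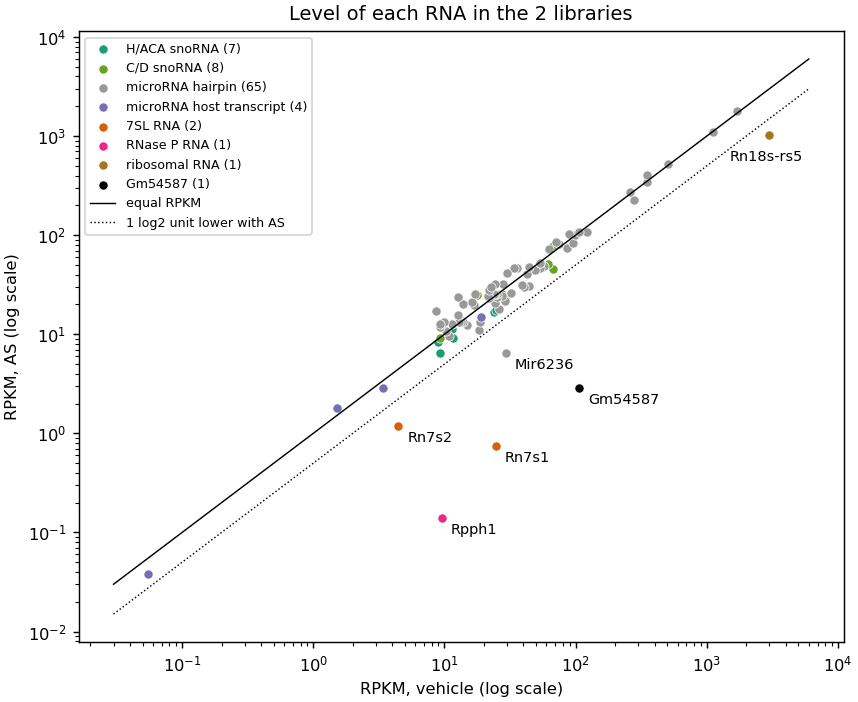
RPKM of each of the 89 RNAs in the vehicle library (x axis) and the AS library (y axis), both on log scales, with 1 point per RNA, colours for the classes, a line of equal RPKM and a dotted line 1 log2 unit below it. The 6 named RNAs lie below the dotted line, and the other points follow the line of equal RPKM.

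The RNA of RNase P had the lowest ratio. Rpph1 stood at 0.140 RPKM with AS and 9.50 RPKM with the vehicle, from 2 reads and 154 reads. The log2 ratio of its reads per library was -6.09 (95% Clopper-Pearson interval -9.15 to -4.21), and with 0.1 RPKM added it was -5.32. The Ccnb1ip1 gene that shares most of its bases had 280 reads with AS and 425 reads with the vehicle, which is -0.41 as a log2 fold change. Rpph1 was thus near 0 with AS, and the gene that overlaps it was measured in both libraries. How reads that lie in both genes were assigned is not given in the sources used here. The 10 measured mRNAs for proteins of RNase P and RNase MRP were between -0.26 and 0.49 in log2 fold change, with a median of 0.11. Pop1, the largest protein of the complex, had 6.76 RPKM with AS and 6.79 RPKM with the vehicle.

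The 7SL copies came next. Rn7s1 had 0.742 RPKM with AS and 24.7 RPKM with the vehicle (10 and 376 reads), a log2 fold change of -4.88. Its log2 ratio of reads had a 95% interval from -6.13 to -4.16. Rn7s2 had 1.19 RPKM with AS and 4.46 RPKM with the vehicle (16 and 68 reads), a log2 fold change of -1.82, with an interval of the read ratio from -2.79 to -1.11. Both copies were lower with AS, and their intervals do not overlap although their annotated sequences are identical, so their reads cannot be assigned to 1 copy by sequence and only their sum can be read. Even read numbers made up 56.8% of the values of the 323 genes with up to 350 bases of exon, where most of the 89 RNAs are, 60.9% of those of the 1041 genes with over 350 and up to 1000 bases of exon and 52.0% of those over 5000 bases, and whether both reads of a pair were counted was not tested. If they were, the intervals would be too narrow. With all counts divided by 2 the interval of Rn7s2 would run from -3.23 to -0.77, past the threshold of 1, and the interval would hold 0 for 74 of the 89 RNAs in place of 59. Over all 14197 genes it would hold 0 for 7928 in place of 6058. The median width of the undivided intervals was 0.82 for the 89 RNAs and 0.27 for all genes. This division was chosen after seeing the data. In sum they had 26 reads with AS and 444 reads with the vehicle, a log2 ratio of -3.92. The 8 measured mRNAs for proteins of the signal recognition particle lay between -0.12 and 0.16. Srp14, which binds one end of 7SL RNA, was at 106 RPKM with AS and 94.9 RPKM with the vehicle.

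Gm54587, with 70 bases of exon, had 2.86 RPKM with AS and 106 RPKM with the vehicle, from 9 and 376 reads. Its log2 fold change was -5.16, and the interval of its read ratio ran from -6.35 to -4.27. In the vehicle library it had the same number of reads as Rn7s1, and in the AS library 9 against 10. Without a sequence or a position, whether it shares reads with Rn7s1 was not tested.

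The ribosomal RNA held most of the reads of the set. Rn18s-rs5, a copy of the 18S ribosomal RNA on chromosome 17 that RefSeq lists as a pseudogene of 1849 bases (GRCm38.p6, chr17:39846354-39848202), had 1015 RPKM with AS and 3005 RPKM with the vehicle. These are 84282 and 282401 reads, a log2 fold change of -1.57 with an interval of the read ratio from -1.58 to -1.55. The share of all reads on the 89 RNAs was 0.281% with AS (95% Clopper-Pearson interval 0.279 to 0.282) and 0.661% with the vehicle (0.659 to 0.663). Without Rn18s-rs5 the shares were 0.0927% and 0.104%. The difference in share therefore lay mainly in this 1 gene. AY036118, a gene annotated on the minus strand within the same place (chr17:39847113-39848035, GRCm38), had 878 and 2976 reads and a log2 fold change of -1.58. Whether the counting used the strand is not given in the sources used here, and whether the 2 genes share reads was not tested.

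Mir6236 was the single hairpin of the 65 beyond 1. It had 6.52 RPKM with AS and 29.4 RPKM with the vehicle (36 and 184 reads), a log2 fold change of -2.16 with an interval of the read ratio from -2.73 to -1.65. Its hairpin of 123 bases (chr9:110281287-110281409, plus strand) overlaps no other gene of the annotation. Its sequence was not compared with ribosomal RNA, and whether it shares reads with the lower ribosomal RNA was not tested. Of the RNAs not beyond 1, the lowest was Mir705 at -0.71 (41 and 76 reads) and the highest Mir5133 at 0.99 (60 and 34 reads). Of the 6 lower RNAs, Rn18s-rs5 at -1.57 was nearest to the threshold.

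**Figure D2:**
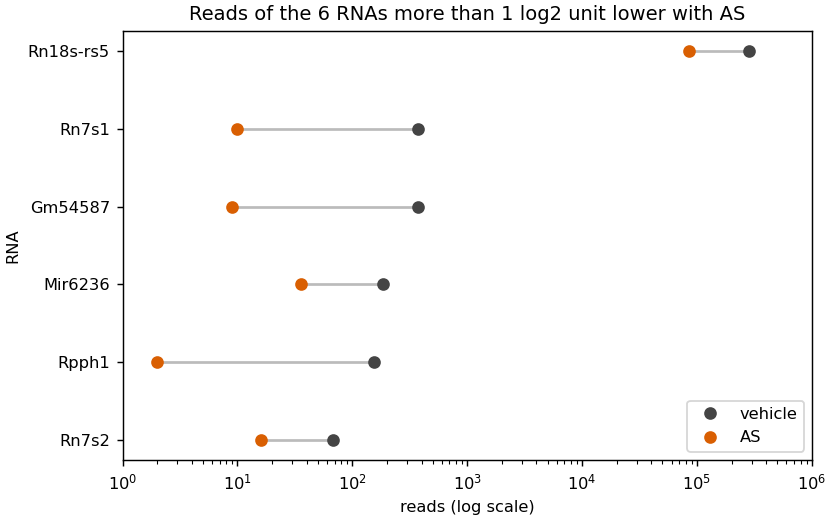
Reads of the 6 RNAs with a log2 fold change below -1 in the vehicle library (grey points) and the AS library (orange points), on a log scale with 1 row per RNA and a line between the libraries. They run from 2 reads for Rpph1 with AS to 282401 reads for Rn18s-rs5 with the vehicle.

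The snoRNAs differed less. All 7 H/ACA snoRNAs were below 0, from -0.51 to -0.01 with a median of -0.35, and the interval of the read ratio held 0 for 5 of the 7. Of all genes, 39.1% were below 0. Among 28 further small RNA genes of the annotation under other symbols, 22 of them typed as snoRNA, 15 were below 0 and 13 above. Snora65 had 23.6 RPKM with AS and 27.2 RPKM with the vehicle (138 and 180 reads). Snora43 had 17.8 and 24.8 RPKM (111 and 175 reads, log2 fold change -0.48). Snora7a had 16.7 and 23.9 RPKM (105 and 170 reads, log2 fold change -0.51). Snora43 and Snora7a were the members of the class whose intervals lay below 0, -0.83 to -0.13 and -0.88 to -0.16. With all counts divided by 2 the interval of Snora43 held 0 (-0.99 to 0.02), and 6 of the 7 did. The mRNAs for 6 proteins of the H/ACA particle and of its assembly (Naf1 and Shq1) had a median of -0.03. That of the pseudouridine synthase Dkc1 stood at 24.2 RPKM with AS and 24.1 RPKM with the vehicle.

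The 8 C/D snoRNAs had values on both sides of 0, from -0.55 to 0.48 with a median of -0.06, which was -0.28 where a minimum mean of 100 reads was set and -0.13 when centred on the median of all genes. Snord57 was lowest, with 46.1 RPKM with AS and 67.5 RPKM with the vehicle (149 and 247 reads, interval of the read ratio -0.85 to -0.25). Snord22 had 51.2 and 62.2 RPKM (290 and 398 reads, log2 fold change -0.28). Snord96a had the highest level with AS, 78.1 RPKM against 66.8 RPKM with the vehicle (284 and 275 reads), and a log2 fold change of 0.22. Snord21 had the highest fold change of the class, 0.48 (104 and 84 reads), with an interval of 0.06 to 0.92. With all counts divided by 2, the interval of Snord57 alone lay below 0 and those of the other 7 held 0. The mRNA of the methyltransferase Fbl of the C/D particle had 39.1 RPKM with AS and 45.4 RPKM with the vehicle. The mRNAs for 7 proteins of the particle and of its assembly (Nufip1, Znhit3 and Znhit6) had a median of 0.05.

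The microRNA hairpins stood close to the median of all genes, with a median of 0.06. Of the 65, 28 were below 0 and 37 above, and the interval of the read ratio held 0 for 46. Of all 14197 genes, 5555 were below 0 and 8642 above, and the interval held 0 for 6058. Mir3064 had the highest level, 1797 RPKM with AS and 1688 RPKM with the vehicle (5406 and 5748 reads). Mir5121 had 1102 and 1123 RPKM, and Mir3082 523 and 503 RPKM. These 3 hairpins lie in exons of Ddx5, Rpl13a and Stub1. The 8 measured mRNAs for proteins of the microRNA pathway were all above 0, between 0.00 and 0.30. Drosha was at 31.4 RPKM with AS and 29.4 RPKM with the vehicle.

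Among the 4 microRNA host transcripts, long RNAs from which hairpins are cut, Mir100hg had 15.1 RPKM with AS and 19.0 RPKM with the vehicle (17071 and 24318 reads). Its log2 fold change was -0.33 with an interval of the read ratio from -0.36 to -0.30. Mir17hg, the host of the miR-17 cluster, stood at 1.79 and 1.51 RPKM with a log2 fold change of 0.23 (interval -0.004 to 0.49). Mir22hg stood at 2.86 and 3.37 RPKM with -0.23 (interval -0.48 to 0.003). Mir99ahg was at 0.0377 and 0.0553 RPKM, from 38 and 63 reads, with an interval from -1.17 to 0.05. The intervals of Mir17hg, Mir22hg and Mir99ahg hold 0, which leaves their direction undetermined at this depth. None of the 4 passed 1 in either direction.

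**Figure D3:**
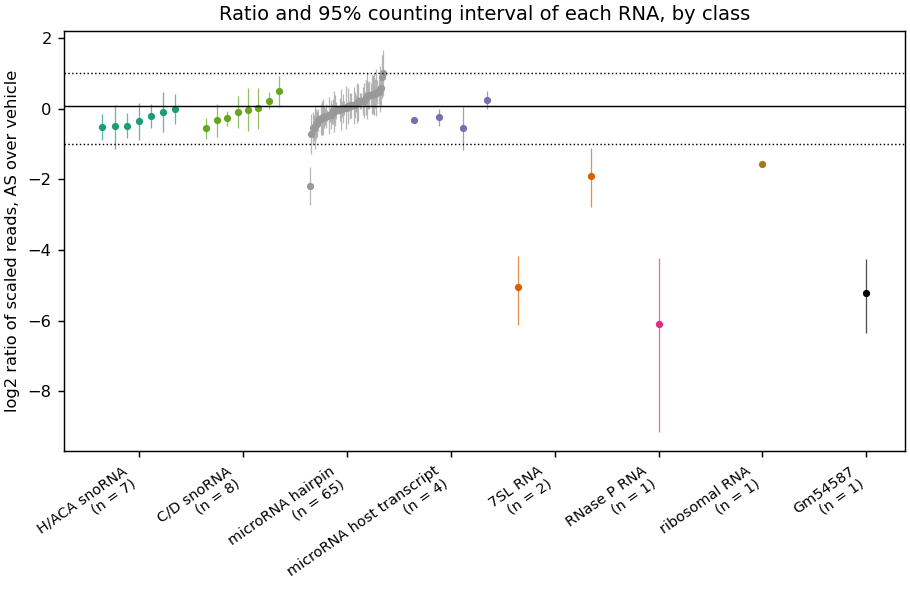
Log2 ratio of reads scaled to library size, AS over vehicle (y axis), for each of the 89 RNAs in 8 classes (x axis), with 1 point per RNA and vertical lines for the 95% Clopper-Pearson interval of counting error. The solid line is the median log2 fold change of all genes, 0.07, and the dotted lines stand at -1 and 1; the 6 lower RNAs have intervals wholly below -1, which for Rn7s2 does not hold with all counts divided by 2.

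Position in other genes was not part of the rule. By GENCODE M21, 57 of the RNAs overlap an exon of another gene on the same strand, 14 lie in an intron on the same strand only, 7 overlap an exon on the other strand only, and 5 overlap no other gene; the host transcripts and the RNAs with no single entry are not in these counts. Of the 5 without another gene, Rn7s1, Rn7s2 and Mir6236 were lower by more than 1, while Snora43 (-0.48) and Mir146 (-0.08) were not. The 71 RNAs inside a gene on the same strand had a median of -0.01, and Rpph1 was the only one of them beyond 1. Without it the other 70 ran from -0.71 to 0.99.

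For 76 RNAs the overlapping gene was also in the table, and in 59 of these the ratio of that gene lay inside the interval of the small RNA, or in 66 with all counts divided by 2. Reads inside a hairpin that lies in an exon can come from the messenger RNA itself. Mir5133, at 0.99, lies in an exon of Glce, a gene of heparan sulfate synthesis, which was at 1.06. Mir1902, at 0.57, lies in an exon of Hipk3, which was at 0.51. Mir6978, at 0.89 (61 and 37 reads), lies in an intron of the complement gene C3, which was at 0.43, inside its interval of 0.29 to 1.53. Mir705 lies in an exon of Rab11fip5, which was at 0.10 and outside its interval of -1.30 to -0.15, though inside the interval of -1.56 to 0.10 with all counts divided by 2 (0.0986 against an upper bound of 0.0994). For the 45 hairpins in an exon on the same strand, 37 had the ratio of the gene inside their interval, with a Pearson correlation of 0.59 and a Spearman correlation of 0.54 between the fold changes of hairpin and gene. These points share libraries and may share reads, since how reads in 2 genes were assigned is not given in the sources used here, so the correlation is a description.

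Of 14 snoRNAs with a gene in the table, 12 were below the fold change of that gene, with a median difference of -0.28, and the gene lay inside the interval of 8, or of 11 with all counts divided by 2. The 10 hairpins in an intron on the same strand had a median difference of -0.27, and no difference between the groups was tested. Snora61 was at -0.09 (49 and 59 reads) and Snhg12, whose exon it overlaps, at 0.87. Snord22 was at -0.28 and Snhg1 at 0.63. Snord57 was at -0.55 and Nop56, a core protein of the C/D particle, at -0.05. The 2 above their gene were Snord21, at 0.48 with Rpl5 at -0.06, and Snord96a, at 0.22 with Rack1 at -0.03. Across the 18 measured snoRNA host transcripts without a large protein, such as Gas5 and the Snhg genes, the median was 0.25, with 14 above 0 and none beyond 1. Of all 14197 genes, 8642 were above 0. Gas5 had 36.8 RPKM with AS and 34.2 RPKM with the vehicle, and Snord78 within it was at -0.10 with 0.11 for Gas5.

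**Figure D4:**
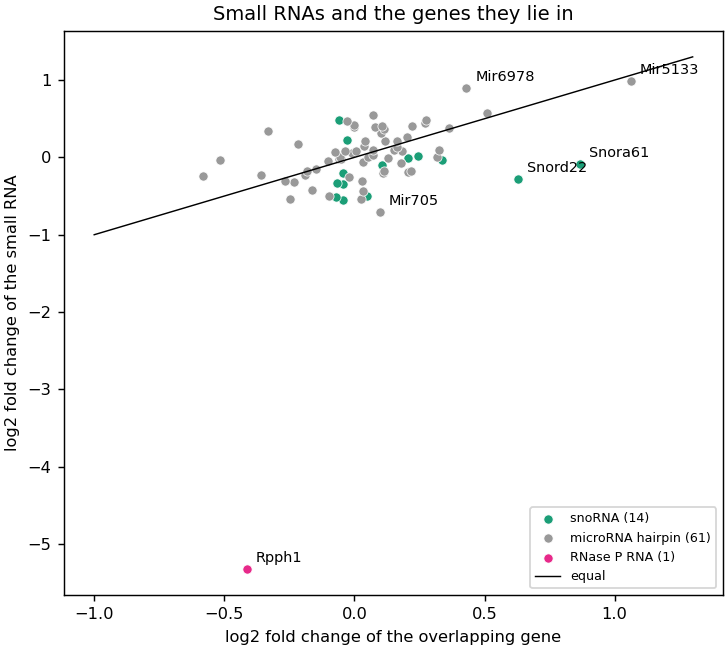
Log2 fold change of the gene that a small RNA overlaps (x axis) and of the small RNA itself (y axis), with 1 point for each of the 76 RNAs whose gene was in the table and a line where both are equal. Rpph1 lies far below the line, Mir5133 close to it, and Snora61 and Snord22 lie below it.

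The mRNAs for proteins that make or bind these RNAs differed little, and protein levels were not measured. Over the 113 measured genes of the protein lists, which were chosen with earlier results of these data known, the median log2 fold change was 0.05, 50 were below 0 and 63 above, and no gene passed 1 in either direction. RNA polymerase III makes 7SL RNA and Rpph1. The 14 measured genes of its subunits and of its factors Brf1, Brf2, Bdp1 and Maf1 had a median of 0.23, with 11 above 0. Of all 14197 genes, 8642 were above 0 and 5555 below. Polr3gl stood at 52.6 RPKM with AS and 41.2 RPKM with the vehicle, and Polr3d at 21.6 and 16.8 RPKM. The mRNAs for 4 proteins of the 7SK particle were all below 0 with a median of -0.17, and Larp7 had 64.6 and 71.3 RPKM. The mRNAs for 19 proteins of the spliceosomal particles and of their assembly (Smn1 and the Gemin genes) ran from -0.61 to 0.46 with a median of -0.09. The 15 measured genes of RNA trimming and decay had a median of 0.06, and the deadenylase Parn had 24.2 RPKM with AS and 22.3 RPKM with the vehicle.

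Other RNAs of related kinds were listed beside the 89. Replication-dependent histone mRNAs also end without a poly(A) tail; 8 were in the table, with a median of -0.48, and H2ac19 was the only one beyond 1, with 56 and 140 reads and a log2 fold change of -1.11. H2bc4 had 198 and 134 reads and 0.72. A further 28 genes that the annotation types as snoRNA, microRNA or snRNA but that carry other symbols had a median of -0.10, with Gm22579 lower (14 and 54 reads, -1.73) and Gm26003 higher (66 and 36 reads, 1.04). The 17 mitochondrial ribosomal and transfer RNAs had a median of -0.24 and none beyond 1.

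Most of the 89 RNAs are short, so other short genes were set beside them. Among the 239 other genes with at most 350 bases of exon, 9 were lower and 7 higher by more than 1, with a median of -0.06. Gm54754 (338 bases) had 68 and 576 reads and -2.88, and Gm55118 (57 bases) 748 and 3199 reads and -1.92. In the other direction Gm56277, Gm56278, Gm56279 and Gm56280 were at 1.03 to 1.22. These other short genes thus lay on both sides of 0.

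The annotated transcripts of the 4 lower RNAs with an entry had 56.1% to 67.1% G and C, within the range of 28.8% to 82.9% of the other 79 RNAs. Their longest runs of A were 2 bases in Rpph1, 4 in the identical Rn7s1 and Rn7s2, and 8 in Mir6236. Those of the others were 1 to 6. How far RNAs without a poly(A) tail were carried into each library was not tested. The epithelial genes Krt8, Krt18, Krt7, Krt19, Epcam and Cdh1 were all present, between 84.6 and 902 RPKM. The keratins were lower with AS, Krt8 at 372 RPKM against 540 RPKM with the vehicle, Krt18 at 707 against 902, Krt7 at 119 against 170 and Krt19 at 136 against 226, while Cdh1 was at 95.5 against 84.6. The part of these differences in the values above was not tested, and the leukocyte gene Ptprc was at 0.116 RPKM with AS and 0.114 RPKM with the vehicle.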

How the data were processed

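Total RNA of 4T1 cells was extracted with TRIzol, 1 library per condition. Per the labels, reads were processed with fastp 0.23.4, STAR 2.5.3a and featureCounts. The labels name GRCh38, a human build, for these mouse cells. The authors deposited RPKM for both libraries and a pooled log2 mean CPM for 14197 genes; their columns of fold change, p-value and FDR were not used. Counts were recovered from the RPKM ratio and the pooled log2 value, and implied exon lengths lay within 0.01 of whole numbers for 100% of genes. Library sizes were 44909683 (AS) and 50820728 (vehicle) reads. Lengths equalled GENCODE M21 for 85 of 86 RNAs with an entry, and positions are those of that annotation (GRCm38), since the table gives none. The recovery was also run on simulated data, where it was given the true library size and dispersion. Both were estimated for the real data, so that run does not test their estimation.

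Fold changes are log2((AS + 0.1)/(vehicle + 0.1)) in RPKM and were called beyond 1, without a test, as 1 library per group allows none. Intervals are 95% Clopper-Pearson intervals of the 2 counts and cover counting error only. Alternatives were other pseudocounts, centring, a minimum of 100 reads, other member sets and a threshold of 1.5-fold. Members and lists were chosen with earlier results of these data known. Named were all members beyond 1, the 3 highest per class, all of classes with up to 5 members, and the 3 highest or those beyond 1 of each list; Snord21, Snora31, Snora61, Snord78, Mir705, Mir1902, Mir146, Mir5133, Mir6978, the short genes and the genes that overlap members were chosen after their values were seen. Computations ran in Python 3.11 with scipy 1.17.1. Not every sequence is reported here.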

Additional observations from a re-analysis of the deposited data

How the results depend on the processing

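The limits are those of 1 library per condition and of reads that near-identical copies or overlapping genes can share. Of 74 recomputed values, 65 stayed within the limits set. These were 1.5 times for counts, the counting error for shares and, for medians, a limit drawn from the interval width of single RNAs. The last limit is wide, and Rpph1 at -3.20 in place of -5.32 stayed within it. Some alternatives removed no RNA of a class, so its median could not change, and the 65 is no measure of robustness. The 6 lower RNAs became 3 without the 7SL and 18S copies (leaving Rpph1, Gm54587 and Mir6236), 5 without Gm54587 and 7 when all annotated small RNA genes were added, the last 2 of these chosen after seeing the data. The 0 RNAs higher by more than 1 became 2 at a threshold of 1.5-fold and 1 with the added small RNA genes. The median of the 7SL copies was -3.35 and became -4.88 with a minimum mean of 100 reads, which leaves Rn7s1 alone, and the 18S value became -1.63 when centred on the median of all genes. The share of reads on the RNAs was 0.241% with AS and 0.612% with the vehicle without microRNA host transcripts, and 0.0927% and 0.104% without Rn18s-rs5. The hairpin median turned from 0.06 to -0.01 on centring, the C/D snoRNA median went from -0.06 to -0.13, and to -0.28 with a minimum of 100 reads, and the median of the 89 RNAs went from -0.03 to -0.09 on centring. A pseudocount of 1 RPKM moved Rpph1 from -5.32 to -3.20, and none moved it to -6.09. The minimum of 100 reads removes 38 of the 89 RNAs, Rpph1 and Rn7s2 among them, and leaves 4 lower. No paired analysis was possible because each condition has 1 library.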
